A study of Mus musculus with 42 samples.

Results

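SOX2 binding in T/BraKO cells treated with CHIR was compared with SOX2 binding in wild-type (WT) cells that did not receive it. The comparison used 6 of the 42 samples of the series, 3 SOX2 libraries per group, chosen by antibody, genotype and treatment as labelled. It addresses which SOX2 sites appear or disappear when WNT signalling is activated in cells that lack T but have intact Cdx genes. All cells were differentiated in vitro from lines of HM1 (129) background, a mouse embryonic stem cell line, and chromatin was collected at 72 h. They were grown with 10 ng/ml bFGF and 5 µM LGK974, an inhibitor of WNT secretion, and the T/BraKO cells (genotype T/Bra-/-) also received CHIR99021 (CHIR), which activates WNT signalling downstream of the receptor, over the last 24 h. The WT cells (noCHIR) stayed in bFGF and LGK974. The study names cells grown with CHIR in this way caudal epiblast-like cells, and those without it epiblast-like cells. T/BraKO is a cell line of its own, so loss of T, CHIR and cell line cannot be told apart between these groups. The replicates are biological replicates per the labels. SOX2 regions found only in the T/BraKO libraries held CDX and TCF/LEF motifs more often than those found only in the noCHIR libraries. The latter held the OTX motif more often. β-catenin, profiled only in cells with CHIR, was called more often at the former in T/BraKO cells. SOX2 peaks of the same cells helped to define both classes, so this readout is not independent of that choice.

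SOX2 is an HMG-box transcription factor of pluripotent and neural cells that binds CATTGT-like sites, often beside POU factors such as OCT4. WNT signalling stabilises β-catenin, which is brought to DNA by TCF/LEF proteins. T (Brachyury) is the T-box factor of the primitive streak, and CDX1, CDX2 and CDX4 are homeodomain factors of the caudal epiblast that act on the Hox clusters. OTX2 is a homeodomain factor of the epiblast and the anterior neural plate. Peak lists do not measure transcripts, so the loss of T was taken from the labels. SOX2 peaks were listed around T (gene body extended by 10000 bp) in every library, 7, 5 and 4 in the full T/BraKO lists and 5, 4 and 10 in the full noCHIR lists, which does not check the deletion.

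MACS called 266820, 104221 and 26940 peaks in T/BraKO replicates 1, 2 and 3, and 88643, 81239 and 201773 in noCHIR replicates 1, 2 and 3. On the log10 scale the numbers averaged 4.96 ± 0.50 and 5.05 ± 0.22 (SD, n = 3 each; two-sided exact permutation test, p = 0.9). Because list length differed so much, the 20000 best peaks of each library were compared, ranked by the −log10 q that MACS gave each summit. At rank 20000 the −log10 q was 7.67, 6.87 and 3.26 in T/BraKO and 9.04, 9.16 and 9.63 in noCHIR, so T/BraKO replicate 3 stood apart. The median fold enrichment over the local background among these peaks was 7.38, 7.57 and 6.08 against 8.98, 9.15 and 8.32. Every noCHIR library therefore had stronger peaks at matched list length than every T/BraKO library, and read depth is unknown from these lists.

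The sequences below were chosen to show the motif contrast described in the following paragraphs, so they are not a sample of their classes. OTX matches, for instance, stood at 24.4% of the noCHIR-only summits. Each is the 201 bases centred on a SOX2 summit, from RefSeq GRCm38.p6 (the build of the lists, mm10), plus strand, 5′ to 3′. Capitals mark matches, on either strand, to the SOX motif (CCATTGT or else CCTTTGT), the CDX motif (CCATAAA or else TCATAAA, likewise CAATAAA or else TAATAAA), the TCF/LEF motif (CTTTGAA or else CTTTGAT) and the OTX motif (TAATCC). The SOX and TCF/LEF letters share CTTTG, but no run of bases matches both. The first 5 were called in 3 of 3 T/BraKO lists and 0 of 3 noCHIR lists among the 20000 best peaks, and hold CDX or TCF/LEF matches.
Adgrl2, chr3:149462149-149462349: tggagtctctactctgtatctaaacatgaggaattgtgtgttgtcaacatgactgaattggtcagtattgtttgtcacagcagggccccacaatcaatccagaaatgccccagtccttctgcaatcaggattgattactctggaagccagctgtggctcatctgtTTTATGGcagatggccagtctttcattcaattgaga
Irx1, chr13:72210196-72210396: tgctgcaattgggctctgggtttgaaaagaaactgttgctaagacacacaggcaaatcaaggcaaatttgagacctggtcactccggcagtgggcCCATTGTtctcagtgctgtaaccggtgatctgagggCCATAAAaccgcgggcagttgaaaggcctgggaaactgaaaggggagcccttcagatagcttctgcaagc
Polr2m, chr9:71493835-71494035: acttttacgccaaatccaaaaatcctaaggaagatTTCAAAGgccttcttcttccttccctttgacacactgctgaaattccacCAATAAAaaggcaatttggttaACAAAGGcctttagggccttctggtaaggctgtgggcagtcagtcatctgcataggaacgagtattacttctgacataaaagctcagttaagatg
Hoxa4, chr6:52190778-52190978: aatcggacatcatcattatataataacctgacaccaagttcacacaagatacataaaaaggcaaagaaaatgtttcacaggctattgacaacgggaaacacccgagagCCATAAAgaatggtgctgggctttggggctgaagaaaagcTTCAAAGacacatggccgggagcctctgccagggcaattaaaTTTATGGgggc
Hoxb9, chr11:96271946-96272146: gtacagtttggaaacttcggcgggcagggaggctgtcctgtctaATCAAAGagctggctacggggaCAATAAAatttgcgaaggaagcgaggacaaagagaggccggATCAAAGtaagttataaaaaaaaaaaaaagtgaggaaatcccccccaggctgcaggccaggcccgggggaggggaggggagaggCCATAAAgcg
The next 4 were called in 3 of 3 noCHIR lists and 0 of 3 T/BraKO lists. The first 3 of them hold an OTX match, with a SOX match beside it at Ntrk3 and Hesx1, and the one at Sox2 itself holds a SOX match and no OTX match.
Pnpt1, chr11:29062093-29062293: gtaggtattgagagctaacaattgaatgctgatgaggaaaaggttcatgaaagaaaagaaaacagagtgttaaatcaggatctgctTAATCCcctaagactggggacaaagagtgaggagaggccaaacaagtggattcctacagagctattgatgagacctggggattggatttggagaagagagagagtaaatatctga
Ntrk3, chr7:78099690-78099890: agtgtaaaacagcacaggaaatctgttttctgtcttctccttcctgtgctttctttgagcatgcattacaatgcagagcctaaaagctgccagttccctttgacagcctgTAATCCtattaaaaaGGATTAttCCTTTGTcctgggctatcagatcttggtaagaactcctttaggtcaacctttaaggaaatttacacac
Hesx1, chr14:27005918-27006118: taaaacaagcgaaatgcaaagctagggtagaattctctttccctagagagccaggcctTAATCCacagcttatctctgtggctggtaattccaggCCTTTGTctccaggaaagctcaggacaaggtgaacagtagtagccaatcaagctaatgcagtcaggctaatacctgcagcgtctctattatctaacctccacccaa
Sox2, chr3:34671090-34671290: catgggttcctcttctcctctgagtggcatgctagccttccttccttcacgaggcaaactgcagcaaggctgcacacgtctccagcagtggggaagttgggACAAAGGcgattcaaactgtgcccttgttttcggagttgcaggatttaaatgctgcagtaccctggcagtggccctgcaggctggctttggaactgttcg
The last was called in all 6 libraries.
Med13l, chr5:119055569-119055769: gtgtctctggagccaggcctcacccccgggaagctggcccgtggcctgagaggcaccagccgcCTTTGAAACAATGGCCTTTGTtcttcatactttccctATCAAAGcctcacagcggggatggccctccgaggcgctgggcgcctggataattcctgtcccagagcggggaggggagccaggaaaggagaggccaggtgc

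The peaks of the 6 libraries merged into 64166 regions, of which 434 (0.676%) were called in all 3 T/BraKO lists and no noCHIR list, and 1718 (2.68%) in all 3 noCHIR lists and no T/BraKO list. A further 3449 were called in all 6. The imbalance grew with list length. Among the 1000 best peaks of each library the exclusive regions numbered 149 in T/BraKO and 170 in noCHIR, among the 5000 best 374 and 650, and in the full lists 581 and 4035. Without T/BraKO replicate 1, 2 or 3 the T/BraKO count was 1172, 965 or 744, and without noCHIR replicate 3 the noCHIR count was 3319. With a library left out fewer lists must hold a region, which by itself raises the count. Mean Jaccard similarity, the share of regions in common, was 0.368 within noCHIR, 0.216 within T/BraKO and 0.224 between the groups, so T/BraKO libraries were no more like each other than like the noCHIR libraries at this length. At 1000 peaks the same indices were 0.499, 0.472 and 0.272. The excess of similarity within groups over that between groups was 0.0679 at 20000 peaks (one-sided exact permutation test over the 10 splits, p = 0.1, the smallest possible). It was 0.0283, 0.0269 and 0.0338 without noCHIR replicate 1, 2 and 3 (exact p = 0.2, 0.3 and 0.3), 0.0937 to 0.119 without a T/BraKO replicate, and 0.0131 in the full lists (exact p = 0.2).

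Exclusive does not mean absent from the other group. Of the 434 T/BraKO regions, 29.3% had no peak in any full noCHIR list, 27.4% had one in 1 list, 25.1% in 2 and 18.2% in all 3, at ranks beyond 20000. Of the 1718 noCHIR regions, 42.1% had no peak in any full T/BraKO list, 35.2% in 1, 20.7% in 2 and 2.10% in all 3. The full list of T/BraKO replicate 3 held only 26940 peaks, and its part in these shares was not tested.

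The 2 exclusive classes differed in the sequences at their summits. CDX matches stood within 100 bp of 29.0% of T/BraKO-only summits [95% Wilson interval 25.0 to 33.5] and 8.38% of noCHIR-only summits [7.16 to 9.79]. TCF/LEF matches stood at 28.1% [24.1 to 32.5] and 7.86% [6.68 to 9.23]. OTX matches went the other way, at 3.92% [2.46 to 6.18] and 24.4% [22.4 to 26.5]. SOX matches stood at 26.7% [22.8 to 31.1] of the T/BraKO-only summits, 35.1% [32.9 to 37.4] of the noCHIR-only summits and 36.4% of the regions called in all 6. The intervals cover counting error only, since regions share libraries and are not replicates, and the classes were not tested against each other. In windows of the same length moved by 1000 bp, the background was 16.6% and 17.0% for CDX, 6.80% and 7.89% for TCF/LEF, 6.57% and 7.31% for OTX and 6.45% and 7.33% for SOX, in the T/BraKO-only and noCHIR-only class in turn. CDX matches were thus more frequent at T/BraKO-only summits than beside them, and less frequent at noCHIR-only summits than beside them. At the regions called in all 6, CDX, TCF/LEF and OTX matches stood at 9.65%, 12.4% and 8.76%. A CDX or a TCF/LEF match was present at 48.8% of T/BraKO-only and 15.8% of noCHIR-only summits, and a SOX match together with an OTX match at 1.38% and 8.27%. The OCT-SOX motif, TTGTNATGCAAA, was rare in both classes, at 0.230% and 0.116%, against 1.54% of the regions called in all 6. The T-box motif AGGTGTGA stood at 2.07% and 0.640%, and OCT matches (ATGCAAAT) at 5.53% and 4.48%. Over 10 alternative settings, each leaving out a library or changing the list length, the q limit or another choice, the CDX share of the T/BraKO-only class ranged from 23.1% to 34.7% and the OTX share of the noCHIR-only class from 19.8% to 29.8%.

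**Figure D1:**
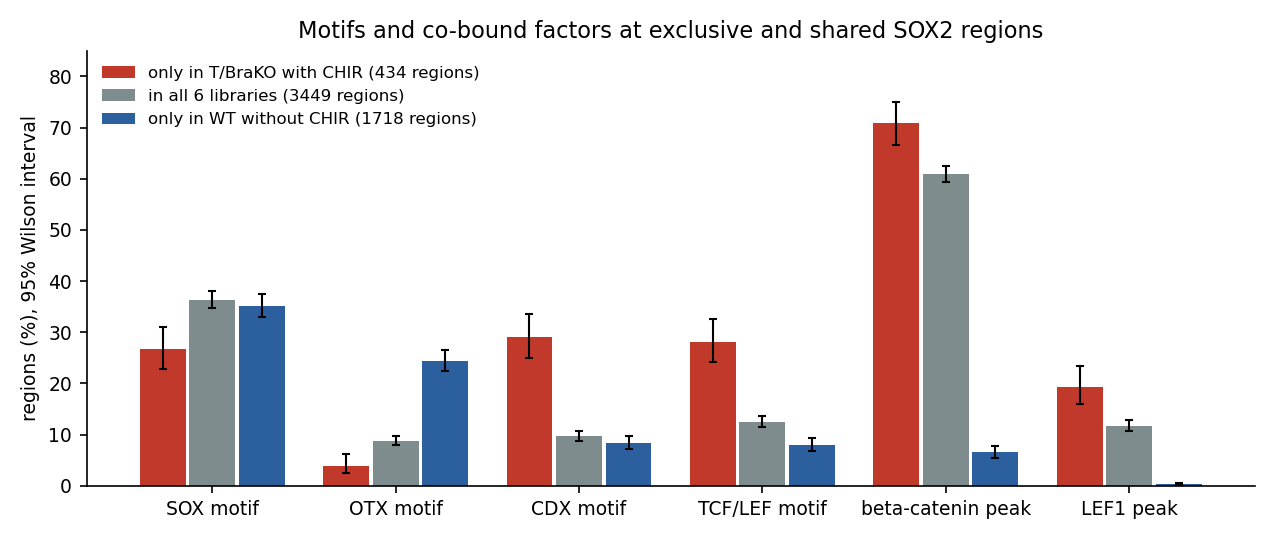
Percentage of SOX2 regions with each motif within 100 bp of the summit, or with a β-catenin or LEF1 peak in at least 2 of 3 T/BraKO libraries, for the 434 regions only in T/BraKO with CHIR (red), the 3449 in all 6 libraries (grey) and the 1718 only in WT without CHIR (blue). Bars are percentages and error bars 95% Wilson intervals for counting error. CDX and TCF/LEF matches are most frequent in red, at 29.0% and 28.1%, and OTX matches in blue, at 24.4%.

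β-catenin and LEF1 were read in lists made with other antibodies from T/BraKO cells with CHIR. The SOX2 peaks of the same cells helped to define the classes, so these readouts are not independent of the choice of regions. β-catenin was called in at least 2 of 3 T/BraKO lists, 20000 best peaks each, at 71.0% of the T/BraKO-only regions, 60.9% of the regions in all 6 and 6.52% of the noCHIR-only regions. The share over all 64166 merged regions was 12.8%, and over the 10533 called in at least 2 T/BraKO SOX2 lists it was 46.3%. Over the 10 alternative settings it ranged from 52.8% to 83.7% for the T/BraKO-only and from 3.05% to 17.1% for the noCHIR-only regions. LEF1 was called in at least 2 of 3 lists at 19.4%, 11.6% and 0.233%, against 1.79% over all merged regions. Both factors were thus called more often at the T/BraKO-only than at the noCHIR-only regions. Neither factor was profiled without CHIR, so whether these regions carried β-catenin or LEF1 in the noCHIR cells was not measured. Both classes lay mostly away from promoters. Summits within 1000 bp of a transcription start made up 11.3% of the T/BraKO-only, 7.51% of the noCHIR-only and 20.7% of the shared regions, and 29.5% and 33.5% of the exclusive summits lay over 100000 bp from the nearest start of a coding gene.

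SOX2 lists of the other CHIR-treated cells show how far the exclusive regions recur when T is present or when Cdx1, Cdx2 and Cdx4 are absent. Comparisons of those cells with noCHIR would share the noCHIR libraries, so only the lists themselves are given. Of the T/BraKO-only regions, 54.1% had a peak in all 3 full WT CHIR lists and 51.6% in all 3 full CdxKO CHIR lists, while 4.15% and 13.4% had one in none. Of the noCHIR-only regions, 9.78% and 21.01% were in all 3, and 24.3% and 25.4% in none. The full WT CHIR lists held 205833 to 1008922 peaks and the CdxKO lists 86068 to 172423, so the WT lists had more room for a weak peak.

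The presence of a CdxKO peak split the T/BraKO-only regions by motif. CDX matches stood at 67.2% [54.4 to 77.9] of the 58 regions in no CdxKO list, 33.6% [26.5 to 41.4] of the 152 in 1 or 2 lists and 16.1% [11.8 to 21.4] of the 224 in all 3. The last share was close to the 16.6% of the moved windows. It was above that of other regions in all 3 CdxKO lists. There CDX matches stood at 9.32% of the regions called in all 6 libraries and 4.99% of the noCHIR-only regions. TCF/LEF matches were found at 20.7%, 16.4% and 37.9% of the same regions, and SOX matches at 25.9%, 25.0% and 28.1%. β-catenin was called in at least 2 T/BraKO lists at 62.1%, 62.5% and 79.0% of them. The size of the CDX contrast depends on T/BraKO replicate 3, without which the share was 38.1% of 118 regions in no CdxKO list and 15.5% of 304 in all 3. Without T/BraKO replicate 1 the first share was 49.0% of 196 regions, and in the full lists 55.9% of 177.

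**Figure D2:**
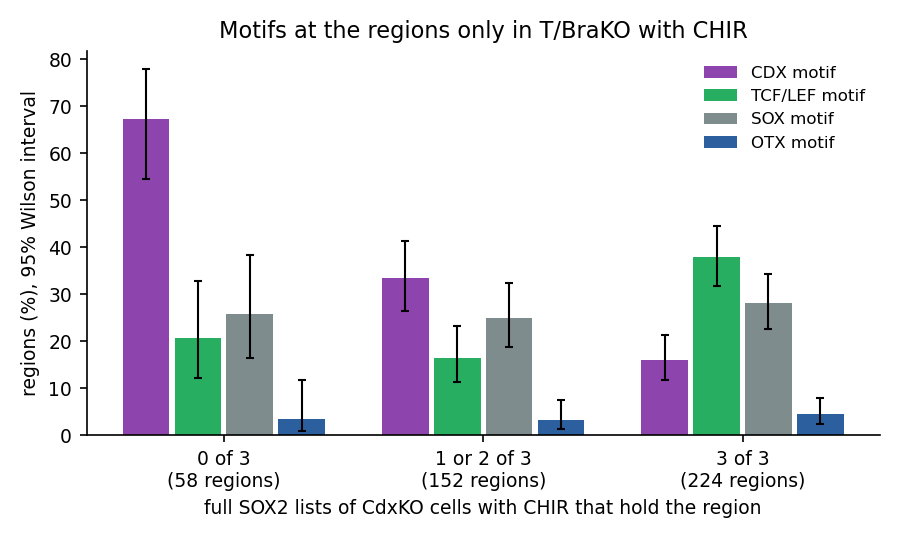
For the 434 regions exclusive to T/BraKO, the percentage that hold a CDX (purple), TCF/LEF (green), SOX (grey) or OTX (blue) match, split on the horizontal axis by how many full SOX2 lists of CdxKO cells with CHIR hold the region. Bars are percentages and error bars 95% Wilson intervals. The CDX share is 67.2% where no CdxKO list holds the region and 16.1% where all 3 do.

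The 10 T/BraKO-only regions with the best mean rank were led by 1 upstream of Hs3st3b1, a heparan sulfate 3-O-sulfotransferase gene, at chr11:63957014-63957582, −35053 bp from the start. Its fold enrichment was 49.5, 42.0 and 56.1 in T/BraKO, at ranks 40, 131 and 54, and it lay outside the 20000 best of every noCHIR library although all 3 full lists held it. Next came regions near Gtf3a, which encodes the 5S rRNA factor TFIIIA, with 27.6, 38.5 and 49.1, and near Adgrl2, a latrophilin adhesion receptor, with 30.0, 18.5 and 29.4. The Adgrl2 region, −471694 bp from the start, was in no full noCHIR list and had a CDX match 68 bp from its summit. Regions near Irx1, an Iroquois homeodomain gene, and Dut, the dUTPase gene (the region lay in an intron of Fbn1), were in all 3 full WT CHIR lists and in no CdxKO list. Both held a CDX match, and the Irx1 summit also a SOX match. Naa30 (an N-terminal acetyltransferase subunit) and Polr2m (an RNA polymerase II subunit) had TCF/LEF matches, and their regions were in all 3 lists of both WT CHIR and CdxKO. The Polr2m region also held a CDX match. So did the regions near Gtf3a and Adgrl2, which all 3 full CdxKO lists held too. A CDX match thus went with absence from the CdxKO lists at Irx1 and Dut but not at Gtf3a, Adgrl2 and Polr2m. Vwc2 (a secreted BMP antagonist) and Slc8a1 (a sodium-calcium exchanger) completed the group with a region in an intron of T2.

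The T2 region, at chr17:8389003-8389568, lay about 45 kb upstream of T, with summits at −45160, −45221 and −45182 bp from the T start in T/BraKO replicates 1, 2 and 3. Its fold enrichment there was 27.1, 23.7 and 24.1, at ranks 334, 850 and 475, and no full noCHIR list held it. All 3 WT CHIR and all 3 CdxKO lists held it, and β-catenin was called there in all 3 T/BraKO libraries. SOX2 was thus enriched at this upstream region in all 3 CHIR-treated groups, the cells without T included, and in no noCHIR list.

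The 10 noCHIR-only regions with the best mean rank were read in the same way. The first lay in an exon of Ephb3, an ephrin-B receptor gene, at chr16:21212323-21212748, with 32.7, 74.6 and 52.0 in noCHIR and a peak in 1 full T/BraKO list. Regions near Mon1b, a vesicle-trafficking gene (47.4, 37.1 and 43.4), and Pnpt1, a mitochondrial exoribonuclease gene (39.7, 67.7 and 23.8), were in no full T/BraKO list and no CdxKO list. Ntrk3, the neurotrophin-3 receptor gene, had a region with 46.5, 42.9 and 32.9 and a pair of OTX matches 12 and 27 bp from the summit, as printed above. Clcn3, Cfap299, Zfp60, Tmem130, Mrpl37 and Ust made up the rest. OTX matches stood at Pnpt1, Cfap299, Ntrk3 and Ust and at none of the other regions of the 10. The Mon1b region held a TCF/LEF match, and no region of the 10 held a CDX match. β-catenin was called in all 3 T/BraKO lists at Mrpl37, where LEF1 was called in 1, and in at most 1 T/BraKO list at the other regions of the 10, none of which LEF1 called.

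Exclusive regions were spread over many genes. The 306 T/BraKO-only regions within 100000 bp of a coding start were nearest to 291 genes and the 1143 such noCHIR-only regions to 1053. Most T/BraKO-only regions per gene were 3 at Mtss1, a membrane-bending protein gene, and genes with 2 included Zfp36l2 (an mRNA-decay factor), Hoxb9 and Epb41l4a. Most noCHIR-only regions were 5 at Tal2, a bHLH factor gene, 4 at Slc6a6, the taurine transporter gene, and 3 each at Ldlrad3, Rbm8a2 and Grip1.

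Of the 8 gene lists examined, 2 had no overlap between the groups. Hox paralogues 1 to 9 (27 genes) had 42, 62 and 65 of the 20000 best peaks in T/BraKO and 27, 34 and 27 in noCHIR, with the nearest coding start within 100000 bp. The 18 caudal epiblast genes had 49, 48 and 67 against 45, 34 and 39. In both lists every T/BraKO library had more than every noCHIR library (two-sided exact permutation test, p = 0.1 each, the smallest possible, adjusted over the 8 lists p = 0.32). In the full lists the mean difference for Hox genes was −3.33 peaks, so its direction holds for the best peaks and not for the full lists. For caudal genes it was 16.3 in the full lists (exact p = 0.8). Among the 5000 best peaks the mean differences of anterior neural (−8) and streak genes (4.67) also reached exact p = 0.1. Anterior neural genes (20) had 61, 78 and 56 peaks against 89, 100 and 61, and the groups overlapped (exact p = 0.3). Primed epiblast genes had 79, 86 and 87 against 99, 98 and 81 (exact p = 0.3), and naive pluripotency genes 34, 31 and 49 against 27, 28 and 33 (exact p = 0.2). WNT feedback genes had 48, 50 and 65 against 39, 48 and 35, and streak and mesendoderm genes 36, 39 and 37 against 26, 36 and 27 (exact p = 0.2 each). Paraxial mesoderm genes had 27, 25 and 21 against 32, 30 and 18 (exact p = 0.7). By gene, the T/BraKO mean was higher at 21 and lower at 3 of the 27 Hox genes, higher at 15 and lower at 2 of the 18 caudal genes, and higher at 4 and lower at 13 of the 20 anterior neural genes. At the other lists the counts were 6 higher and 11 lower of 18 primed genes, 11 and 2 of 15 naive genes, 8 and 4 of 14 WNT genes, 11 and 3 of 15 streak genes, and 5 and 7 of 15 paraxial genes. Of the 14669 coding genes with a peak in any of the 6 libraries, the T/BraKO mean was higher at 46.0% and lower at 38.3%, and these counts were not tested.

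**Figure D3:**
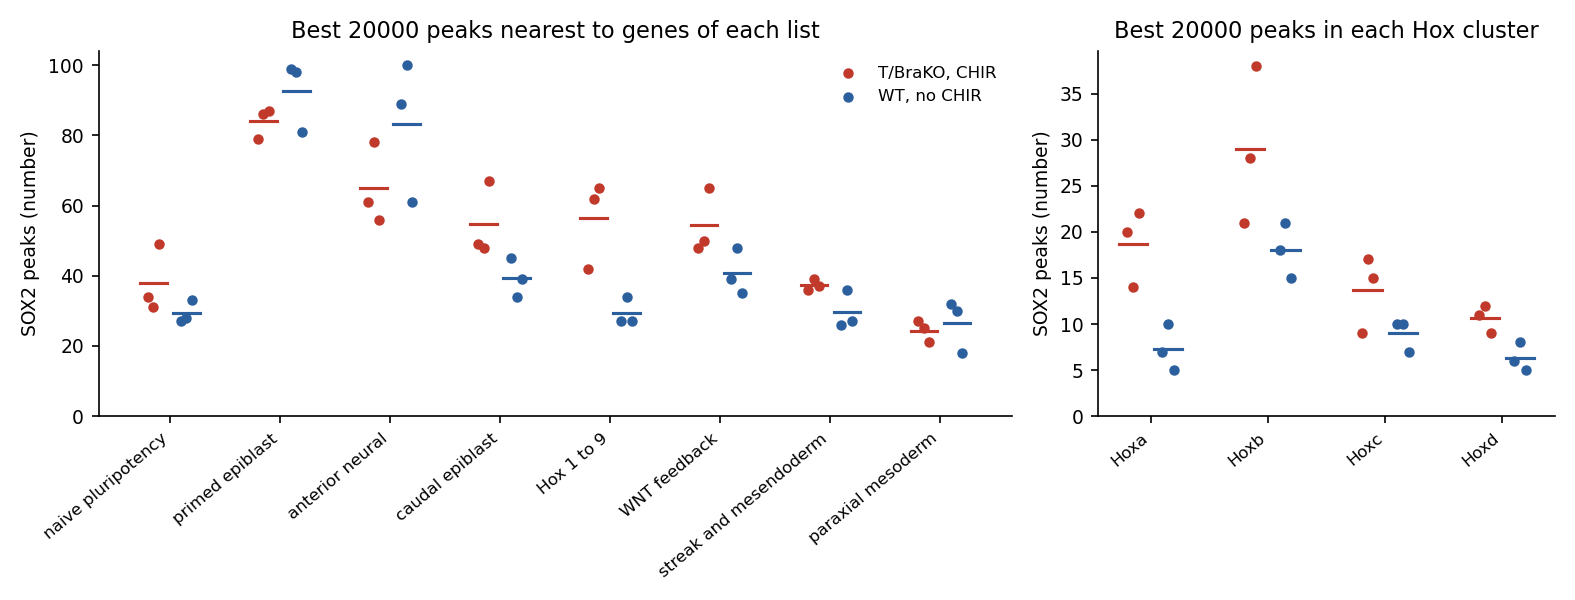
Number of the 20000 best SOX2 peaks nearest to the genes of each list (left) and within each Hox cluster extended by 10000 bp (right), 1 point per library, T/BraKO with CHIR in red and WT without CHIR in blue. Horizontal lines are means of 3 libraries. The groups do not overlap at the caudal epiblast and Hox 1 to 9 lists and at Hoxa and Hoxd.

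The 4 Hox clusters together held 61, 71 and 84 peaks in T/BraKO and 41, 49 and 32 in noCHIR, or 72 ± 11.5 against 40.7 ± 8.5 (SD, n = 3; two-sided exact permutation test, p = 0.1). WT CHIR averaged 60 and CdxKO 57. In the full lists the mean difference was −28.3 peaks. Hoxa held 20, 14 and 22 against 7, 10 and 5, and Hoxd 11, 12 and 9 against 6, 8 and 5. At Hoxb, with 21, 28 and 38 against 18, 21 and 15, and at Hoxc, with 9, 17 and 15 against 10, 10 and 7, the groups touched or overlapped. Of the 143 merged regions of the Hox list, 7 (4.90%) were T/BraKO-only, 0 noCHIR-only and 5 (3.50%) in all 6, against 0.676%, 2.68% and 5.38% of all merged regions. The T/BraKO-only regions included those at Hoxa4, Hoxb4, Hoxb9 (−348 and 523 bp from the start) and Hoxc6. The region 875 bp into Hoxa4, printed above with CDX matches 11 and 93 bp from its summit, was in no full noCHIR list, in all 3 WT CHIR lists and in no CdxKO list. The Hoxb9 region at 523 bp, with a pair each of CDX and TCF/LEF matches, had a peak in all 3 full noCHIR lists beyond rank 20000.

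The other 7 lists held 2 to 8 exclusive regions each. The caudal list had 5 T/BraKO-only (4%) and 1 noCHIR-only region (0.8%) of 125. They lay −125 bp from the start of Cdx1, −1048 bp from that of Meis3 (a TALE homeodomain cofactor gene) and −1599 bp from that of Nkx1-2 (a homeodomain gene of the caudal epiblast), and at Greb1 and Hes3, against 1 upstream of Gbx2. The Meis3 region was in no full noCHIR list and in 1 CdxKO list. Among primed, naive and streak genes, T/BraKO-only regions included those near Nodal (−1931 bp from the start of this TGF-β ligand gene), Tdgf1 (its co-receptor), Etv5, Klf5 and Utf1, and 1 lay at Pou3f2 of the anterior neural list. WNT feedback genes had 2 (1.52%) of 132 regions, at Nkd1 and Rnf43, both inhibitors of the pathway, and 5 noCHIR-only regions (3.79%), at Axin2, Lef1, Nkd1 and Tnfrsf19 (2). The noCHIR-only regions of primed and anterior neural genes lay near Sox2 itself (20785 bp after the start), Pou3f1 (5368 and 11119 bp), Hesx1 (5656 bp), Pax6, Foxd3 and Utf1. Hesx1 encodes a homeodomain repressor of the anterior epiblast and Pou3f1 a POU factor of the primed epiblast. The Hesx1 region, at mean rank 3507 in noCHIR, was the only one of them with no peak in any full list of the 3 CHIR-treated SOX2 groups. Paraxial mesoderm genes had 4 noCHIR-only and 0 T/BraKO-only regions, at Foxc1, Lfng, Msgn1 and Rspo3, and Eomes and Tbx3 had 1 noCHIR-only region each.

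The motif contrast was present among the 20000 best peaks of each library. The exclusive classes were taken from these same lists, so the shares are no separate support. SOX matches stood at 20.1%, 25.4% and 24.1% of the 20000 best T/BraKO summits and 30.8%, 32.7% and 26.1% of the noCHIR summits. OTX matches stood at 7.60%, 7.24% and 7.82% against 11.01%, 12.5% and 12.2%. CDX matches, at 14.0%, 12.02% and 15.7% against 8.60%, 8.82% and 10.9%, and TCF/LEF matches, at 11.8%, 12.3% and 14.2% against 9.46%, 9.79% and 10.0%, were higher in T/BraKO. In each of the 4 the libraries of the groups were fully separated (exact two-sided permutation test, p = 0.1, the smallest possible, adjusted over 7 motifs p = 0.175). In the full lists the differences were smaller, at −1.96 percentage points for SOX (exact p = 0.8), 1.97 for CDX (exact p = 0.4), −1.80 for OTX and 1.60 for TCF/LEF (exact p = 0.1 each), so SOX and CDX matches no longer separated the groups. Moved windows gave 16.4% and 16.2% for CDX, so CDX matches were below the background in both groups on average, at 13.9% and 9.45%. Moved windows gave 7.06% and 7.17% for SOX, 8.18% and 7.89% for TCF/LEF and 8.06% and 7.83% for OTX, so the OTX share of T/BraKO summits was close to its background. OCT matches (4.22% and 4.50%, exact p = 0.6), OCT-SOX matches (0.615% and 0.565%, exact p = 0.8) and T-box matches (0.925% and 0.740%, exact p = 0.2) did not separate the groups. WT CHIR libraries averaged 17.1% SOX, 15.4% CDX, 11.4% TCF/LEF and 7.71% OTX matches, and CdxKO libraries 24.8%, 10.3%, 12.9% and 7.11%.

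The OTX and TCF/LEF differences were widest at the strongest peaks. Among ranks 1 to 1000, OTX matches stood at 8.07% ± 0.60 of T/BraKO and 16.5% ± 1.7 of noCHIR summits, and among ranks 10001 to 20000 at 7.46% ± 0.08 and 10.7% ± 0.8 (SD, n = 3 each). TCF/LEF matches stood at 18% ± 1.2 and 10.8% ± 0.9 in the first bin and 11.1% ± 1.0 and 9.58% ± 0.25 in the last. CDX matches in the first bin stood at 12.7% ± 1.7 and 8% ± 0.3, and in the last at 14.4% ± 1.4 and 10.3% ± 1.8. SOX matches were fewer at weaker peaks in both groups, with 37.1% ± 2.7 in the first bin and 17.8% ± 2.6 in the last in T/BraKO, and 43.3% ± 3.6 and 25.0% ± 4.0 in noCHIR. The promoter share of the 20000 best summits was 18.6% ± 2.3 and 18.4% ± 2.2 (exact permutation test, p = 0.8), and among the 5000 best summits it was higher in T/BraKO by 3.77 percentage points (exact p = 0.1).

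**Figure D4:**
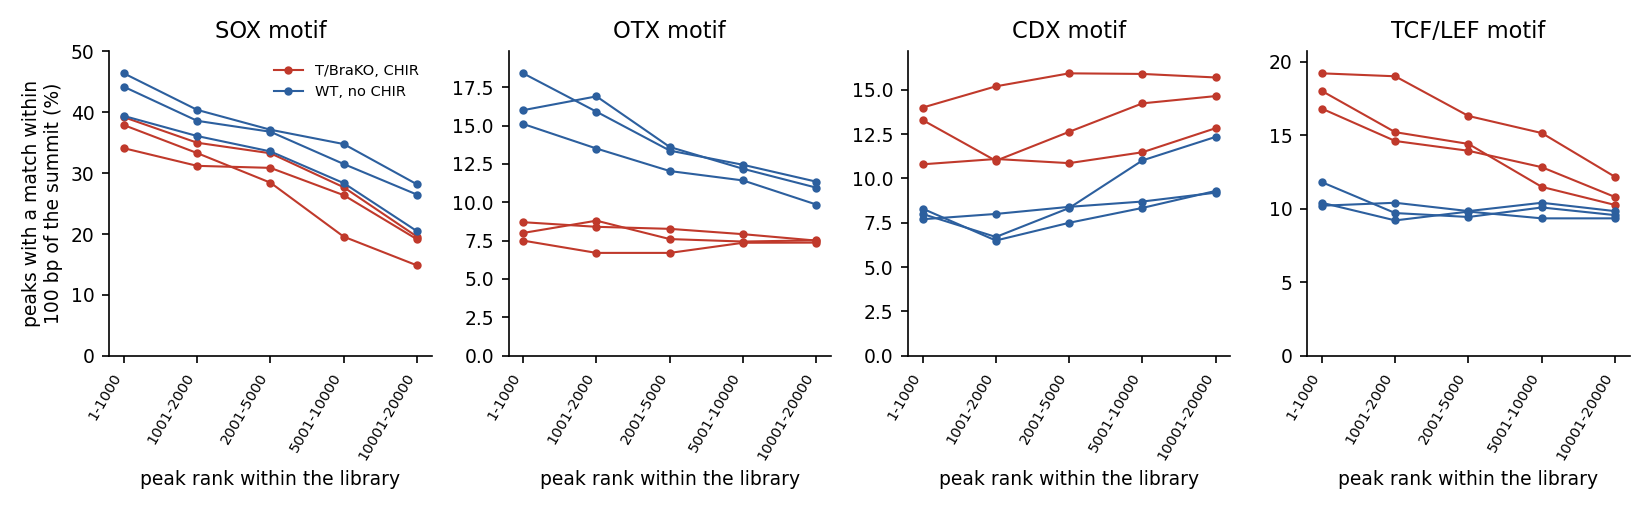
Percentage of peaks with a SOX, OTX, CDX or TCF/LEF match within 100 bp of the summit (vertical axes, each from 0) by rank of the peak within its library (horizontal axis, 5 bins from 1 to 20000), 1 line per library, T/BraKO with CHIR in red and WT without CHIR in blue. In the bin of ranks 1 to 1000 OTX matches average 8.07% in red and 16.5% in blue, and TCF/LEF matches 18% and 10.8%.

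Changes in strength were then tested at the 7524 regions with a peak in all 6 full lists, the only regions with a fold enrichment in every library. Values were log2 fold enrichment after quantile normalisation, and limma called 230 regions (3.06%) higher and 282 (3.75%) lower in T/BraKO at an adjusted p of 0.05. The median difference of the called regions was 1.52 and 1.51 in size on the log2 scale, with a median SE of 0.41. Over all 7524 regions the median difference was 0.02, but quantile normalisation gives the 6 libraries the same distribution and so largely fixes this value. Before this step the median fold enrichment of uncalled regions was 7.998, 9.46 and 7.70 in T/BraKO and 11.02, 10.88 and 9.37 in noCHIR. The counts of higher and lower regions were thus taken after such differences between libraries had been removed. Without T/BraKO replicate 3 the counts were 123 and 159, without noCHIR replicate 1 they were 100 and 117, and without noCHIR replicate 2 they were 112 and 121. The smallest called differences were 1.12 and 1.16 in size, and no smaller difference was called. Selection for all 6 lists is limited by the 26940 peaks of T/BraKO replicate 3.

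**Figure D5:**
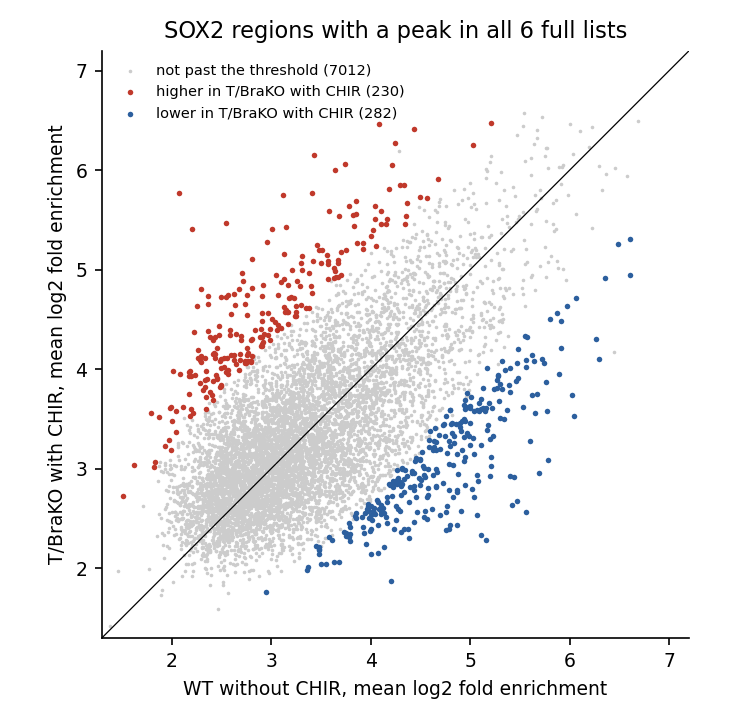
Mean quantile-normalised log2 fold enrichment of SOX2 in WT without CHIR (horizontal axis) and in T/BraKO with CHIR (vertical axis), 1 point per region, for the 7524 regions with a peak in all 6 full lists. Red points are the 230 regions higher in T/BraKO at an adjusted limma p of 0.05, blue points the 282 lower and grey points the remaining 7012. The diagonal marks equal values.

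The higher and lower regions, at sites that both groups held, differed in motifs and co-bound factors in the same directions as the exclusive classes. These regions overlap the exclusive classes and come from the same libraries, so they are not independent of them. CDX matches stood at 23.0%, 6.03% and 9.57% of the higher, lower and uncalled regions, TCF/LEF matches at 30.9%, 5.67% and 11.9%, and OTX matches at 8.70%, 23.0% and 7.42%. SOX matches stood at 25.7%, 45.0% and 32.9%. OCT matches were more frequent at the higher regions, at 12.2%, 4.96% and 6.45%, and OCT-SOX matches stood at 3.91%, 0.355% and 1.17%. β-catenin was called in at least 2 of 3 T/BraKO lists at 91.3% of the higher, 44.3% of the lower and 46.6% of the uncalled regions, and LEF1 at 36.5%, 3.90% and 7.42%. Starts of coding genes lay within 1000 bp of 10.0%, 4.96% and 19.7%. The β-catenin share of the lower regions and the OTX share of the higher regions were near those of the uncalled regions.

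Fold enrichment at the higher regions had a median of 18.7, 20.0 and 21.1 in T/BraKO and 8.36, 7.84 and 8.04 in noCHIR. In the other CHIR-treated cells, where it was not used to choose the regions, the median was 14.5, 10.4 and 18.9 in WT CHIR and 16.1, 16.7 and 16.2 in CdxKO. At the lower regions it was 7.33, 9.13 and 5.99 in T/BraKO and 32.1, 32.6 and 27.03 in noCHIR, against 8.18, 6.37 and 8.17 in WT CHIR and 10.3, 11.8 and 9.19 in CdxKO. WT CHIR and CdxKO values thus lay on the T/BraKO side of the noCHIR values in both directions. The noCHIR values took part in choosing the regions, so this is no separate support, and the medians describe regions with a peak in the list concerned.

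The largest increase was again near Hs3st3b1, with 49.5, 42.0 and 56.1 in T/BraKO and 4.86, 3.83 and 4.43 in noCHIR, a log2 difference of 3.70 ± 0.39 (SE; limma adjusted p = 3.54e-08). Gtf3a followed with 3.20, then Grsf1 (an RNA-binding protein of mitochondria) with 2.92, Mef2c (a MADS-box factor) with 2.72 and Robo1 (a SLIT receptor) with 2.63. A region −4258 bp from the start of Lefty2, an inhibitor of NODAL signalling, had 24.3, 27.9 and 19.4 against 5.05, 4.68 and 5.72 and a log2 difference of 2.51 ± 0.40 (limma adjusted p = 7.04e-05). It held an OCT-SOX match. Csmd3, Cul4b, Fam227b and Slc8a1 followed at 2.37 to 2.40. The largest decrease was near Vrk2, a kinase gene, with 3.69, 6.95 and 6.47 against 89.4, 82.4 and 20.1 (log2 difference −3.01 ± 0.44, limma adjusted p = 2.39e-05). Cfap299 had 4.92, 4.73 and 4.41 against 44.8, 46.1 and 35.1 (log2 difference −2.88). Regions near Vps13d, Ephb1 (an ephrin-B receptor), Stox2, Hinfp, Slc25a40, Grik2 (a kainate receptor subunit), Plekhg1 and Tspan2 fell by 2.52 to 2.79 on the log2 scale. All 20 regions passed the threshold in all 10 fits, the main fit among them, apart from Fam227b, which passed in 9.

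Of the 213 such regions nearest to a gene of the 8 lists, 17 (7.98%) were called higher and 7 (3.29%) lower, against 3.06% and 3.75% of all 7524 regions, so the share of lower calls was near that of all regions. The genes named next were singled out after their values were seen. Of 19 Hox regions 3 rose and none fell, with Hoxb1 (1.86, −196 bp from the start) and Hoxb9 (1.57) among those that rose on the log2 scale. Of 23 caudal regions 4 rose and none fell, at Gbx2 (1.55), Wnt5b (1.78) and Wnt8a (1.25 and 1.28). WNT feedback regions at Sp5 (1.72), Nkd1 (1.41) and Tcf7 (1.24) rose, and 1 at Lef1 fell by 1.79, of 25 tested. The Sp5 region, 4 bp from the start of this direct target of β-catenin, had 40.2, 58.1 and 29.7 in T/BraKO and 18.4, 17.97 and 14.1 in noCHIR. Streak regions at T, Wnt3 (1.79), Nodal (1.27) and Lefty2 rose, and 1 at Eomes, a T-box gene of the streak, fell by 2.34, of 21 tested. The Eomes region had 2.95, 3.79 and 4.11 against 20.4, 18.9 and 26.3 (limma adjusted p = 0.000214), with no overlap between groups. Anterior neural regions at Rax and Lhx2, eye and forebrain homeodomain genes, fell by 1.84 and 1.64, and none of 30 rose. Naive regions rose at Esrrb (1.39) and Tfcp2l1 (1.33) and fell at Klf2 (by 1.78), primed regions rose at Otx2 (1.38) and fell at Sall4 (by 1.47), and 1 paraxial region fell at Lfng (by 1.63). Of the regions named here, those at Hoxb1, Lefty2, Sp5, Wnt3, Wnt5b, Eomes, Lef1 and Lfng passed in all 10 fits. The others passed in 3 to 9 of them, and both counts include the main fit. The median log2 difference per list was 0.63 for caudal, 0.57 for streak, 0.37 for Hox, 0.22 for WNT, 0.06 for naive, −0.09 for primed, −0.18 for paraxial and −0.29 for anterior neural regions.

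At T, the region at −19823 bp from the start had 15.3, 17.5 and 11.1 in T/BraKO and 3.76, 9.23 and 3.78 in noCHIR, a log2 difference of 1.77 ± 0.42 (SE; limma adjusted p = 0.00586). It passed the threshold in 9 of 10 fits, the main fit among them. The region at −4305 bp had 14.0, 17.3 and 17.0 against 44.1, 19.2 and 40.1 (log2 difference −0.58 ± 0.39, limma adjusted p = 0.436), and the one at −312 bp 4.85, 13.4 and 17.6 against 8.73, 10.2 and 7.24 (0.57 ± 0.44, adjusted p = 0.525). Of the regions 20 kb and 45 kb upstream of T, the former was thus stronger in T/BraKO and the latter among the exclusive regions. In a region 2826 bp inside Cdx2 the values were 27.6, 21.3 and 14.0 against 14.3, 15.5 and 13.8 (0.94 ± 0.39, limma adjusted p = 0.149). A region 1275 bp inside Cdx1 had 33.0, 13.3 and 12.5 against 19.2, 13.3 and 11.8 (0.73 ± 0.42, adjusted p = 0.347). None of 7 regions around Sox2 passed the threshold, with log2 differences between −0.78 and 0.51. Cdx4 had a peak among the 20000 best in T/BraKO replicate 3 alone, at rank 3406 with a fold enrichment of 10.2.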

How the data were processed

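Chromatin was fixed with disuccinimidyl glutarate and formaldehyde and precipitated with a goat antibody to SOX2. Per the study's methods the authors processed 76 bp single-end reads with nf-core chipseq: Trim Galore, BWA to mm10, filtering with SAMtools, BEDTools, BamTools and picard, and MACS at its default q of 0.05, 1 list per library. The input used as control is not given in the sources used here. Among the deposited values, the ratio is a fold enrichment of the summit over local background, and each summit also has a deposited −log10 p and −log10 q. The deposited summit offset gave its position. The deposited score, a whole number, was not used, and the 12 input samples had no list and were not analysed here. Every column of per-sample values was mapped to its sample.

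Peaks were ordered by −log10 q, with ties settled by −log10 p, fold enrichment and position, and the 20000 best were kept. Peaks overlapping by 1 bp were merged. Both strands of GRCm38.p6 were scanned for motifs up to 100 bp either side of a summit, and windows moved by 1000 bp either way gave the background. Gene starts came from GENCODE M21 (basic). Groups of libraries were compared by exact permutation tests, two-sided, which cannot go below 0.1 for 3 against 3 libraries. Fold enrichments of regions in all 6 full lists were log2 transformed, quantile normalised and tested with limma 3.58.1 (trend, robust, R 4.3.3) with Benjamini-Hochberg adjustment at 0.05. The fit was tested on simulated data with 50 planted log2 changes of each size. It recovered 2% of those of 1, 22% of 1.5, 62% of 2 and 78% of 3. It also called 5 unchanged regions. A region that was not called is therefore not shown to be unchanged. Other steps used Python 3.11.15 and SciPy 1.17.1. The 8 gene lists, the motifs and the compared groups were chosen with earlier results of these data known. Named genes were T, Cdx1, Cdx2, Cdx4 and Sox2, list genes with most peaks or with an exclusive region, the 10 best exclusive regions and the 5 genes with most of them per direction, and the 10 largest called changes per direction. A few genes that this rule names are not reported here.

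Alternatives were full lists, 5000 best peaks, a −log10 q of at least 5, another gene assignment, other scalings, each library left out, and a replicate block. Both groups carry replicate numbers 1 to 3. The labels do not tie equal numbers to a shared day or culture, and deviations of same-numbered libraries correlated by 0.007, 0.090 and 0.122 over the 7524 regions, so the libraries were not treated as paired.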

Additional observations from a re-analysis of the deposited data

How the results depend on the processing

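With each library left out in turn, regions only in T/BraKO numbered 554 to 1172 and only in noCHIR 1964 to 3319. Fewer lists must then hold or lack a region, so counts above the 434 and 1718 of the full set follow from the rule. The limma calls numbered 217 to 481, with 100 to 215 higher and 117 to 266 lower. The CDX, TCF/LEF, SOX and OTX differences stayed within 3.56 to 5.39, 2.28 to 3.48, −8.53 to −5.13 and −4.80 to −4.06 percentage points. Signs turned for values that no test had separated: the difference in log10 peak number (−0.330 to 0.168), the promoter share (−1.06 to 1.34 points), OCT (−0.579 to 0.00833), OCT-SOX (−0.0200 to 0.112) and paraxial mesoderm peaks (−6.67 to 0.333).

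In the full lists regions only in noCHIR numbered 4035, with 5000 peaks 650 and with −log10 q of at least 5 3537. Full lists turned the differences in promoter share (−1.26 points), OCT (0.300), Hox cluster peaks (−28.3), Hox 1 to 9 genes (−3.33), streak genes (−12.0) and paraxial genes (6.00). With 5000 peaks OCT (0.813) and paraxial genes (2.00) turned, and with genes extended by 10000 bp paraxial genes (2.33). On the −log10 p scale limma called 861 regions, 409 higher and 452 lower. The CDX, TCF/LEF, SOX and OTX differences fell to 1.97, 1.60, −1.96 and −1.80 points in the full lists. The causes were not tested. With a replicate block limma called 556 regions (247 higher, 309 lower), and the paired sign-flip test of 3 pairs cannot go below 0.25. The block changed no other call, and the numbers do not pair the libraries by the labels.

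The depth of the libraries is unknown, and the full list of T/BraKO replicate 3, the shortest, limits what the full lists can share. CHIR, loss of T and cell line cannot be told apart. A missing peak is not an absence of binding.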

Other observations

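Around the summit, motif matches were concentrated in the classes where they were frequent. In the pair of 50 bp bins next to the summit, CDX matches stood at 10.6% and 10.4% of T/BraKO-only regions, TCF/LEF matches at 11.3% and 9.9% of the same regions, and OTX matches at 9.4% and 9.0% of noCHIR-only regions.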
